A study of Mus musculus with 2 samples.

Results

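Etv1, Etv4 and Etv5, the 3 members of the PEA3 group of ETS transcription factors, were followed through single-nucleus RNA sequencing of mouse CIC::DUX4 sarcomas. They were taken by name from the 19059 features of the count matrices, and all 3 were measured in all 8 tumors. The tumors came from dFLEx CDS mice, which carry a human HA-tagged CIC::DUX4 cDNA at Rosa26 behind a CAG promoter that is switched on where both Cre and FLPE recombinase act. Both enzymes were delivered as plasmids electroporated into hind limb muscle, so each tumor arose among muscle, stroma, vessels and immune cells of the host. The untreated group (genotype label dFLEx CDS +/-, no treatment given) held 4 tumors. The Minnelide group held 4 tumors from mice given 0.42 mg/kg for 21 days and carries no genotype label. Minnelide releases triptolide in the body, is itself soluble in water, and acts through triptolide, which binds the XPB subunit of TFIIH and blocks transcription initiation. The labels give no age. Tumor numbers are names and pair no animals between the groups, though same-numbered tumors carry the same constant barcode bases. Minnelide tumors 1 and 2 bear the word responder and Minnelide tumors 3 and 4 the word nonresponder in the deposited material outside the sample labels, so values are given tumor by tumor and were not compared by response.

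PEA3 factors bind GGAA core sites in DNA and carry receptor tyrosine kinase and ERK signals to gene expression. In resting cells the repressor CIC holds their genes silent, and ERK signaling relieves this. The CIC::DUX4 fusion keeps the DNA binding of CIC but activates instead of repressing, which makes Etv1, Etv4 and Etv5 its best known direct targets. Etv1 is also an oncogene in prostate cancer and gastrointestinal stromal tumors, Etv4 a driver of invasion, and Etv5 takes part in branching of epithelia and, in muscle, in the gene program of the neuromuscular junction. The proteins are short-lived because the COP1 and DET1 ubiquitin ligase marks them for degradation, and none of that is visible in RNA.

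In GRCm39 Etv1 (ENSMUSG00000004151) lies at chr12:38828851-38920483 on the plus strand, Etv4 (ENSMUSG00000017724) at chr11:101660568-101676197 on the minus strand and Etv5 (ENSMUSG00000013089) at chr16:22200052-22259662 on the minus strand. Exons of the annotation cover 15.27% of the Etv1 span, 20.29% of Etv4 and 12.59% of Etv5, and intronic reads were counted too. No annotated gene overlaps Etv1. An opposite-strand long noncoding RNA overlaps Etv4 (Gm39392) and 2 overlap Etv5 (Gm61225 and Gm59753). None of these 3 is a counted feature, and how their reads were assigned was not tested. UMIs of different genes are not compared as levels here, because genes of unequal length and priming sites are not on 1 scale.

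CIC binds octamers of the form TGAATGAA and TGAATGGA. RefSeq promoter windows (GRCm38.p6) were held for Etv1, 2 windows, and Etv5, 2 windows. Neither octamer occurs on either strand of these 4 windows. TGAATGAA occurs in 428 of all 32851 windows (1.3%) and TGAATGGA in 396 (1.21%). The shorter core TGAATG, searched after the sequence had been seen, occurs in 4183 windows (12.73%). It is absent from both Etv1 windows and from 1 Etv5 window, and it occurs 3 times in the other Etv5 window, at positions -242 and -198 on the sense strand and -129 on the opposite strand. Of all windows, 43 (0.13%) hold 3 or more. The 250 bases before this Etv5 start, chr16:22438369-22438618 on the minus strand, are shown because they hold all 3 cores, written in capitals (TGAATG, or CATTCA where the core lies on the opposite strand).
Etv5 upstream window: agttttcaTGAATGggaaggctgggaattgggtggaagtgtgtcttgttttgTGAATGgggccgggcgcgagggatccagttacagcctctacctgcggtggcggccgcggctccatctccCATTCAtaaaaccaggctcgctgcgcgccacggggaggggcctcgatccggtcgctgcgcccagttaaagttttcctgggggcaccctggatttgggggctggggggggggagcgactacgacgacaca
These letters were matched to sequence and no binding was measured in the series.

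The matrices held 18487409 to 73211599 UMIs per tumor over 5210 to 12615 nuclei, and 59907 nuclei were retained after quality and doublet filters. Untreated tumor 4 was shallow, with a median of 883 UMIs per nucleus against 2329 to 4031 in the other 7. Clusters were formed without Etv1, Etv4 and Etv5 and named from marker genes that also leave them out. The tumor-like class held 36129 nuclei in 13 of 32 clusters, the fibroblast-like 6730, myocyte-like 6706, endothelial-like 2883, macrophage-like 1861, pericyte-like 828 and osteoclast-like 706, and 4064 stayed unnamed. Of the 8 tumor markers, Wt1 was at 0 to 0.92 CPM (the gene's UMIs relative to all UMIs of the same nuclei, scaled to a common total) in tumor-like nuclei, so that class rests on the other 7, which are themselves genes of the fusion's program. In untreated tumor 1 the 9 endothelial markers summed to 3300 CPM in tumor-like nuclei, against 453 to 759 in the other untreated and 401 to 670 in the Minnelide tumors (4100 to 9610 in endothelial-like nuclei). The 8 macrophage markers (777 against 192 to 409 CPM), 7 T/NK markers (118 against 2.31 to 12.5), 5 B markers (140 against 1.86 to 4.6) and 10 myocyte markers (6450 against 419 to 5780) were highest there as well, and the 8 tumor markers lowest (3850 against 9430 to 13700). The 8 fibroblast (1270 against 1520 to 5260 CPM) and 8 pericyte markers (335 against 437 to 636) were lowest in that tumor too. The 6 osteoclast markers (272 against 59.4 to 1050) lay within the range of the others. Same-numbered tumors of the groups shared 49 to 132 barcodes, and how the libraries were run cannot be told apart from treatment.

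All 3 genes were abundant in every tumor. Together they gave 2325255 of 301595285 UMIs, or 0.771%. In tumor-like nuclei their summed share was 0.987%, 1.00%, 0.896% and 1.00% of UMIs in untreated tumors 1 to 4 and 1.18%, 0.767%, 0.973% and 0.908% in Minnelide tumors 1 to 4. The highest and the lowest share were both in the Minnelide group, and the groups overlapped.

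Etv1 in tumor-like nuclei was 5175, 5194, 4473 and 4393 CPM in untreated tumors 1 to 4 and 6921, 4126, 5703 and 5298 CPM in Minnelide tumors 1 to 4. Minnelide tumor 1 was the highest of the 8 and Minnelide tumor 2 the lowest. The means were 4809 ± 435 and 5512 ± 1150 (SD, n = 4 each), and edgeR gave a log2 difference (Minnelide minus untreated) of 0.33 (SE 0.254, 95% interval -0.251 to 0.915, adjusted p = 0.66).

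Etv4 was 3473, 3200, 2553 and 3926 CPM in untreated tumors 1 to 4 and 3213, 1969, 2356 and 2302 CPM in Minnelide tumors 1 to 4. Only Minnelide tumor 1 exceeded any untreated tumor. The means were 3288 ± 574 and 2460 ± 531 (SD, n = 4 each), with an edgeR log2 difference of -0.28 (SE 0.234, interval -0.815 to 0.257, adjusted p = 0.686).

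Etv5 was 1225, 1648, 1933 and 1703 CPM in untreated tumors 1 to 4 and 1651, 1577, 1676 and 1483 CPM in Minnelide tumors 1 to 4. All Minnelide values lay within the untreated range. The means were 1627 ± 295 and 1597 ± 86.7 (SD, n = 4 each), and the edgeR log2 difference was 0.09 (SE 0.227, interval -0.432 to 0.609, adjusted p = 0.905). The fitted difference and the difference of the CPM means have opposite signs, because the fit rescales the libraries (untreated tumor 1 by a factor of 1.188). The intervals leave room for changes of either sign in each of the 3 genes, so these data do not show that Minnelide left them unchanged.

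Of the 12801 genes in the tumor-like fit, edgeR called 0 (0%) at an adjusted p under 0.05. Before adjustment 1222 lay under 0.05. DESeq2 called 110, none of them a PEA3 gene. For none of the 3 genes did the CPM groups separate completely, which 886 genes (6.92%) did. Over all retained nuclei, where no naming enters, Etv1 was 3865, 3964, 2935 and 3446 CPM in untreated tumors 1 to 4 and 6325, 2462, 5166 and 4530 CPM in Minnelide tumors 1 to 4. The log2 difference was 0.53 (SE 0.31, edgeR adjusted p = 0.588). It was -0.10 for Etv4 (SE 0.303, edgeR adjusted p = 0.918) and 0.27 for Etv5 (SE 0.237, edgeR adjusted p = 0.693). In this fit edgeR passed 0 of 13761 (0%), 1373 lay under 0.05 before adjustment, and DESeq2 passed 156. Tumor-like nuclei were 3525 of 8979, 2911 of 4897, 3163 of 6545 and 8567 of 10368 retained nuclei in untreated tumors 1 to 4. They were 6882 of 9312, 1550 of 6820, 6353 of 8516 and 3178 of 4470 in Minnelide tumors 1 to 4. Levels over all nuclei mix these shares with the level per class, and their part was not tested.

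**Figure D1:**
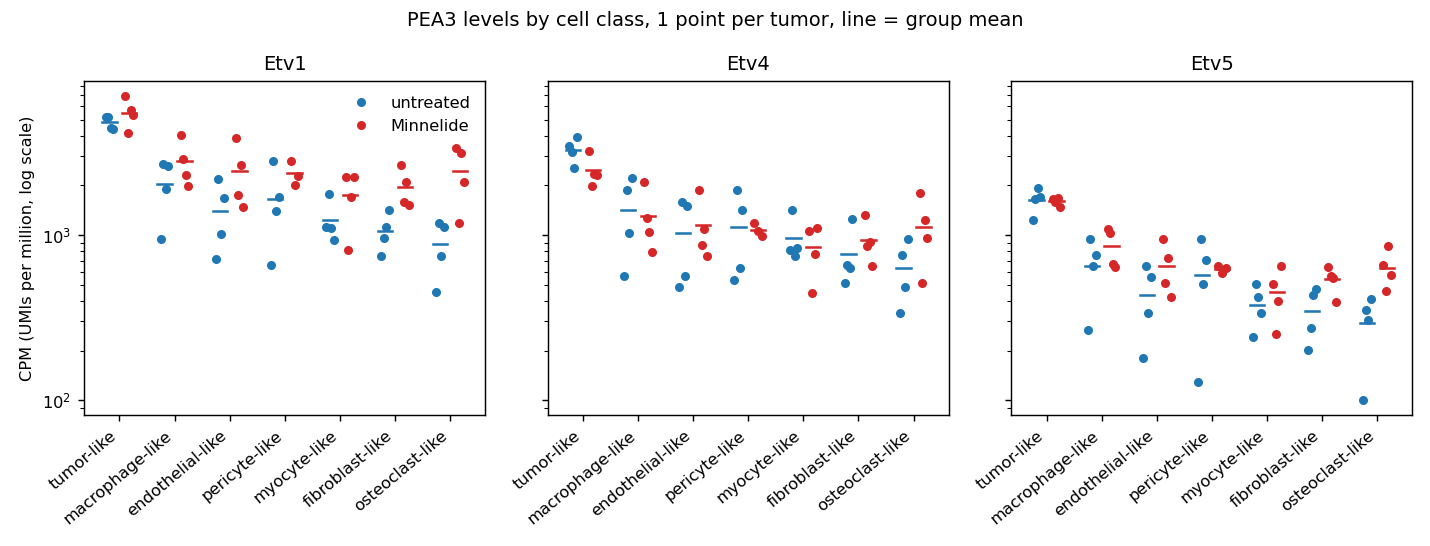
Level of Etv1, Etv4 and Etv5 in CPM (vertical axis, log scale) in each marker-defined class, with 1 point per tumor, untreated in blue and Minnelide in red, and short lines at the group means. Tumor-like points lie at 4126 to 6921 CPM for Etv1, above every point of the other classes, while for Etv4 the lowest tumor-like point (1969 CPM) lies below the highest macrophage-like one (2226 CPM), which is from another tumor. Untreated and Minnelide points overlap there.

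The ratio of 1 pair of genes separated the groups. The ratio of Etv4 to Etv1 UMIs in tumor-like nuclei was 0.671, 0.616, 0.571 and 0.894 in untreated tumors 1 to 4 and 0.464, 0.477, 0.413 and 0.434 in Minnelide tumors 1 to 4. Every Minnelide tumor was below every untreated one, and the Minnelide values lay close together. The means were 0.688 ± 0.143 and 0.447 ± 0.0289 (SD, n = 4 each), a log2 difference of -0.60 (SE 0.149). This ratio was tested after the values per tumor had been seen. The exact two-sided permutation p was 0.0286, the smallest 4 against 4 can give, and 0.0857 after adjustment over the 3 ratios, so it did not pass the threshold. Of 12800 other genes set against Etv1 in the same way, 853 (6.66%) were lower in all Minnelide tumors, and 660 of 12800 (5.16%) were higher in all of them when set against Etv4. The separation is thus one that several percent of genes also show.

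The ratio of Etv5 to Etv1 was 0.344 ± 0.0854 in untreated and 0.299 ± 0.0605 in Minnelide tumors (SD, n = 4 each, exact permutation p = 0.429). The ratio of Etv5 to Etv4 was 0.515 ± 0.175 and 0.668 ± 0.121 (SD, n = 4 each, exact permutation p = 0.2). Both overlapped between the groups. The Etv4 to Etv1 ratio also separated the groups completely in all retained nuclei (log2 difference -0.59), where 4.17% of other genes did so in the same direction. It did so in myocyte-like (-0.65, 1.57% of other genes), endothelial-like (-0.56, 3.3%) and macrophage-like nuclei (-0.55, 2.78%). In fibroblast-like (-0.57) and osteoclast-like nuclei (-0.66) it did so too, but there 36.7% and 36.9% of other genes were also lower against Etv1 in all Minnelide tumors. In pericyte-like nuclei, with 7 tumors, the groups overlapped. These classes come from the same libraries as the tumor-like nuclei, so they are not further evidence.

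The ratio was also set beside depth and naming of nuclei. The highest untreated ratio, 0.894, belonged to shallow untreated tumor 4, and without that tumor the log2 difference was -0.47. Among tumor-like nuclei with under 1000 UMIs it was -0.15 (exact permutation p = 0.533, 4 untreated against 2 Minnelide tumors), where untreated tumor 4 supplied 6208 nuclei and the other 5 tumors 22 to 257. Under stricter naming, which leaves 109 of 3525 tumor-like nuclei in untreated tumor 1 and 2080 of 8567 in untreated tumor 4, it was -0.49 (exact permutation p = 0.0571). The genes were also counted at an equal depth of 1000 UMIs per tumor-like nucleus, with shallower nuclei left out. Untreated tumor 4 then held a mean of 3.938 UMIs of Etv4 and 4.224 of Etv1. Untreated tumors 1 to 3 held 3.23, 3.212 and 2.471 of Etv4 and 4.781, 5.035 and 4.404 of Etv1. In Minnelide tumors 1 to 4 the means were 3.111, 1.996, 2.306 and 2.256 of Etv4 and 6.634, 4.161, 5.518 and 5.254 of Etv1. The part of depth and naming was not tested beyond these values.

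**Figure D2:**
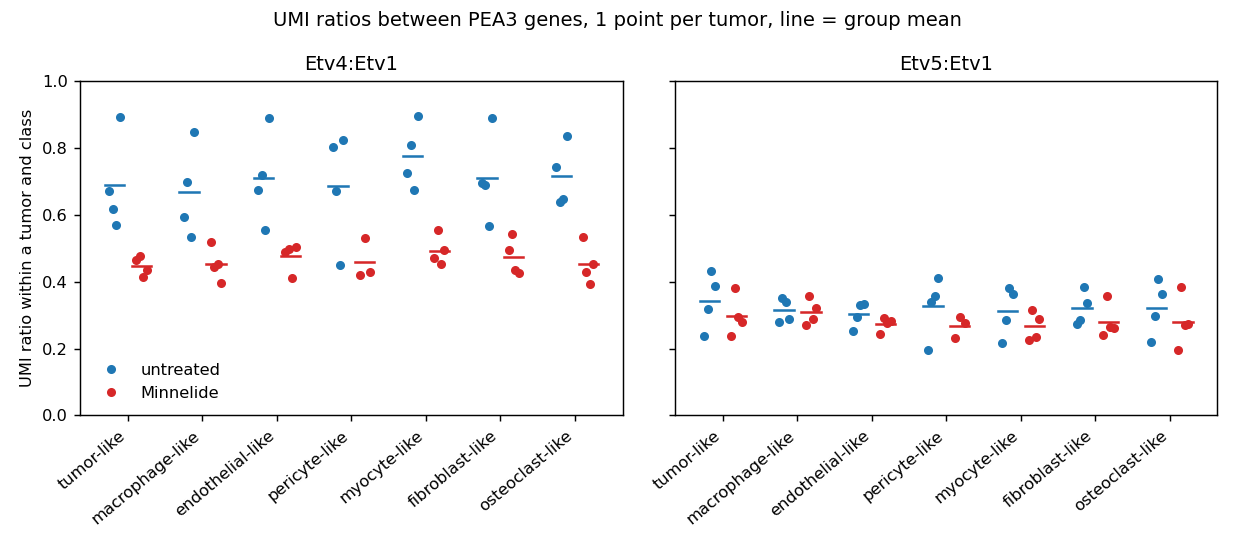
Ratio of Etv4 to Etv1 UMIs (left) and of Etv5 to Etv1 UMIs (right) within each tumor and class, with 1 point per tumor, untreated in blue and Minnelide in red, and short lines at the group means. In tumor-like nuclei the Etv4 to Etv1 points of the 4 Minnelide tumors (0.413 to 0.477) lie below those of the 4 untreated tumors (0.571 to 0.894), and the Etv5 to Etv1 points overlap.

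Tumor-like nuclei held more of each gene than any other class of the same tumor. In each of the 18 comparisons of 3 genes with 6 classes the tumor-like level was higher in all tumors compared, 7 tumors for pericyte-like and 8 for the rest. The mean log2 ratio ran from 1.17 (Etv1 over macrophage-like) to 2.02 (Etv5 over myocyte-like), and the exact sign-flip permutation p adjusted over the comparisons was 0.00937, or 0.0156 for pericyte-like, the smallest values possible for 8 and 7 tumors. The classes were built from the same nuclei, though without these 3 genes. The tumor-like class was named by other genes of the fusion's program, so the naming favors this direction. The p-values are thus not independent evidence of it. Levels over the 8 tumors for Etv1 were 5160 ± 890 CPM in tumor-like, 2423 ± 890 in macrophage-like, 1914 ± 990 in endothelial-like, 1662 ± 1086 in osteoclast-like, 1512 ± 625 in fibroblast-like and 1489 ± 575 in myocyte-like nuclei (SD, n = 8), and 1954 ± 772 in pericyte-like nuclei (SD, n = 7). Apart from the tumor-like class, neighbors in this order differ by less than their SD. Etv4 was likewise highest in tumor-like (2874 ± 677) and next in macrophage-like nuclei (1360 ± 625), and Etv5 followed with 1612 ± 202 and 754 ± 265 CPM (SD, n = 8 each).

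Detection has to be read against the level in the nontumor classes. As a median over tumors, fibroblast-like nuclei held 30.4% of the tumor-like Etv1 level of the same tumor and 27.2% of that of Etv5, with Etv4 in between. For Etv1, Etv4 and Etv5 in turn the values were 27.3%, 31.0% and 22.8% in myocyte-like nuclei, 40.2%, 41.1% and 32.6% in endothelial-like nuclei and 47.3%, 50.5% and 43.8% in macrophage-like nuclei. Over all classes and tumors they ran from 8.16% to 69.6%. Shc3 and Shc4, tumor markers that code for adaptors of receptor signaling, stood at 25.6% and 27.5% in fibroblast-like nuclei and at 45.2% and 46.7% in macrophage-like nuclei, close to the PEA3 genes. Vgf, a secreted neuropeptide precursor and also a tumor marker, was at 76.3% in fibroblast-like, 104% in myocyte-like and 103% in macrophage-like nuclei. Muc5ac, another tumor marker, was at 51.2%, 69.9% and 79.4% in the same classes. The markers Dusp4 and Spred2 were at 35.9% and 35.1% in fibroblast-like and at 47.4% and 49.8% in macrophage-like nuclei.

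The proportions of the 3 genes in the other classes were compared with those in tumor-like nuclei. Relative to tumor-like nuclei of the same tumor, the Etv4 to Etv1 ratio had a median of 0.942 (macrophage-like) to 1.12 (myocyte-like), the Etv5 to Etv1 ratio 0.907 to 1.04 and the Etv5 to Etv4 ratio 0.793 (myocyte-like) to 0.989. In single tumors these factors ran from 0.688 to 1.33. In myocyte-like nuclei the Etv4 to Etv1 ratio was above that of tumor-like nuclei in 8 of 8 tumors, and the Etv5 to Etv4 ratio was above it in 0 of 8. The excess of Etv4 to Etv1 was not beyond counting error in every tumor. In untreated tumor 4 it was 0.8955 (95% counting interval 0.8319 to 0.9638) against 0.8938 in tumor-like nuclei. In Minnelide tumors 1, 3 and 4 the interval also held the tumor-like ratio. Free RNA, mixed nuclei and transcription in the class cannot be told apart by these values, and no nontumor level is read here as expression by that class.

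The level in nontumor nuclei also varied inside a class. Among myocyte-like clusters the shallow ones, clusters 14 and 23 with medians of 946 and 902 UMIs, held 2615 and 3068 CPM of Etv1. The deeper ones, clusters 7, 19 and 32 with medians of 3543, 3323 and 4983 UMIs, held 982.5, 428.4 and 499.6 CPM. An endothelial-like cluster of 121 nuclei, mainly from untreated tumor 2, held 4673 CPM of Etv1, a tumor-like level. Unnamed nuclei held 2939 to 4548 CPM over the 6 tumors that had at least 20.

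In the other classes, edgeR called 0 genes between the groups, 0% in each: fibroblast-like 0 of 11394 (762 before adjustment), myocyte-like 0 of 9989 (283), endothelial-like 0 of 9574 (794), macrophage-like 0 of 7963 (284) and pericyte-like 0 of 6276 (244). Osteoclast-like nuclei were not fitted. Among the PEA3 genes in these fitted classes, Etv1 in fibroblast-like nuclei differed most relative to its spread. It was 742, 958, 1120 and 1408 CPM in untreated tumors 1 to 4 and 2669, 1594, 2085 and 1519 CPM in Minnelide tumors 1 to 4. The groups did not overlap, as in 550 of 11394 genes there (4.83%), and the log2 difference was 0.93 (SE 0.276, edgeR unadjusted p = 0.00819, adjusted p = 0.713). Beside it, Etv5 in the same nuclei had a log2 difference of 0.68 (SE 0.305) and Etv4 of 0.32 (SE 0.328), with edgeR adjusted p of 0.744 and 0.891. In osteoclast-like nuclei, 36 to 227 per tumor, Etv1 was 878 ± 342 CPM in untreated and 2446 ± 998 CPM in Minnelide tumors (SD, n = 4 each). Etv4 there was 630 ± 271 and 1122 ± 534 CPM, and Etv5 292 ± 135 and 635 ± 167 CPM (SD, n = 4 each). These osteoclast-like levels were not tested between the groups.

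Detection per nucleus was measured at equal depth, with each nucleus thinned to 1000 UMIs and shallower nuclei left out (0 to 257 tumor-like nuclei in 7 tumors and 6208 in untreated tumor 4). At that depth Etv1 was seen in 96.95% to 99.71% of tumor-like nuclei, Etv4 in 82.48% to 97.08% and Etv5 in 66.64% to 83.17%. Before thinning the lowest shares were 96.84%, 95.41% and 70.23%. In fibroblast-like nuclei at 1000 UMIs, Etv1 was seen in 45.76% to 87.99%, so a UMI of Etv1 alone does not mark a tumor nucleus in these libraries.

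No share passed the threshold between the groups. Etv1 was detected in 97.7% ± 0.705 of untreated and 98.46% ± 1.15 of Minnelide tumor-like nuclei (SD, n = 4 each, exact permutation p = 0.314). For Etv4 the shares were 92.24%, 93.46%, 89.3% and 97.08% in untreated tumors 1 to 4 and 93.46%, 82.48%, 88.08% and 87.29% in Minnelide tumors 1 to 4. The means were 93.02% ± 3.22 and 87.83% ± 4.5 (SD, n = 4 each). Their difference of -5.19 percentage points exceeded either SD but did not pass the test (exact permutation p = 0.143, adjusted over the 3 genes 0.429). For Etv5 the means were 77.47% ± 7.5 and 77.59% ± 1.7 (SD, n = 4 each, exact permutation p = 0.971).

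Most tumor-like nuclei held all 3 genes. At 1000 UMIs the share with all 3 was 61.12%, 72.41%, 72.64% and 77.7% in untreated tumors 1 to 4 and 73.38%, 62.6%, 69.02% and 64.7% in Minnelide tumors 1 to 4. The groups overlapped, and their means of 70.97% ± 7.0 and 67.43% ± 4.78 (SD, n = 4 each) differed by -3.54 points (exact permutation p = 0.457). Nuclei with none of the 3 made up at most 0.575%. If the genes were detected independently, the product of the single shares would be 59.6%, 72.21%, 72.41% and 77.52% in untreated and 73.39%, 62.01%, 68.78% and 64.44% in Minnelide tumors, within 1.52 points of what was counted. In tumor-like nuclei, where Etv1 is nearly always seen, the counted share could not exceed the product by more than a factor of 1.05 to 1.25 in a tumor, so the classes cannot be compared by this factor. In fibroblast-like nuclei it ran from 6.79% to 34.39% and exceeded the product in 8 of 8 tumors, by a median factor of 1.29, and in myocyte-like nuclei in 8 of 8 by 1.45. In macrophage-like nuclei it exceeded the product in 6 of 8, by a median factor of 1.09.

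Pair by pair in tumor-like nuclei, Etv4 and Etv5 were found together slightly more often than independent detection gives. Their log2 odds ratio averaged 0.29 ± 0.273 (SD, n = 8), above 0 in 8 of 8 tumors (exact sign-flip permutation p = 0.00781, adjusted over the 3 pairs 0.0234). It was 0.79 ± 0.927 for Etv1 and Etv4 (SD, n = 8, exact permutation p adjusted 0.0703) and 0.02 ± 0.823 for Etv1 and Etv5 (SD, n = 8, exact permutation p adjusted 0.945). The Etv4 and Etv5 value fell to 0.05 at 500 UMIs and 0.05 at 200 UMIs, where it missed the threshold. The rank correlation of the counts within tumor-like nuclei, given as a description, had a median over tumors of 0.048 for Etv1 and Etv4, -0.009 for Etv1 and Etv5 and 0.020 for Etv4 and Etv5. In fibroblast-like nuclei the medians were 0.284, 0.199 and 0.191. The difference between the classes was not tested. For Etv1 and Etv4 the median log2 odds ratio was 0.941 in tumor-like, 1.25 in fibroblast-like and 0.69 in macrophage-like nuclei, on both sides of the tumor-like value.

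**Figure D3:**
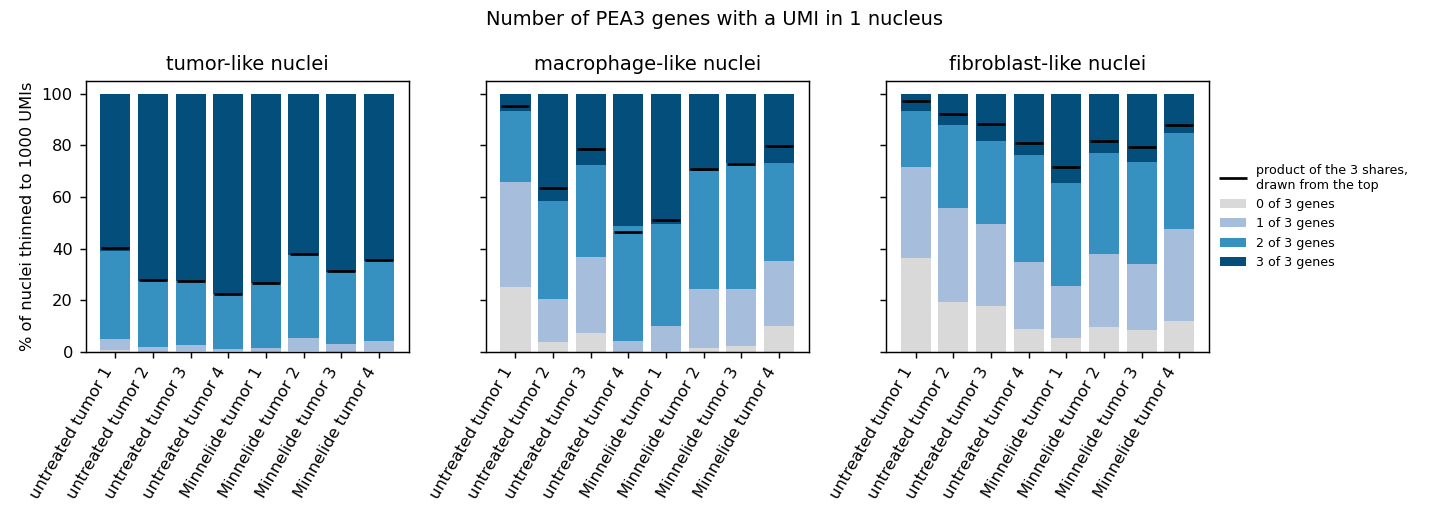
Stacked bars of the percent of nuclei with 0, 1, 2 or 3 of the PEA3 genes at 1000 UMIs, with 1 bar per tumor, for tumor-like, macrophage-like and fibroblast-like nuclei, and a black line where the share with all 3 would begin if the genes were detected independently. In tumor-like nuclei the line meets the edge of the darkest part, which holds 61.12% to 77.7%, and in fibroblast-like nuclei that part reaches below the line in all 8 tumors.

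Counts per nucleus varied more than counting alone gives. At 1000 UMIs the mean was 4.16 to 6.63 UMIs of Etv1, 2.0 to 3.94 of Etv4 and 1.18 to 1.92 of Etv5, and the variance over the mean, which is 1 for pure counting, was 1.22 to 1.69, 1.25 to 1.68 and 1.05 to 1.16. Thinning deeper nuclei to 1000 UMIs itself moves this value toward 1. Among the 13 tumor-like clusters, Etv1 ranged from 4143 CPM (cluster 15) to 7095 CPM (cluster 21), Etv4 from 1974 (cluster 15) to 3907 CPM (cluster 10) and Etv5 from 1204 (cluster 13) to 2087 CPM (cluster 10). Cluster 15 came mainly from Minnelide tumor 2, cluster 21 from Minnelide tumor 1, cluster 10 from untreated tumor 4 and cluster 13 from untreated tumor 1. Between tumor-like nuclei with at least 2 cell cycle UMIs and those with none, Etv1 was lower in the cycling nuclei in 8 of 8 tumors, at 0.872 to 0.984 of the level of the others. For Etv4 the factor was 0.927 to 1.08 and for Etv5 0.963 to 1.04, on both sides of 1. These factors were not tested.

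In untreated tumor 1, Etv1 and Etv4 lay within the range of the other tumors while several other genes of the fusion's program lay far below it. In its tumor-like nuclei Etv1 was at 99.6%, Etv4 at 136% and Etv5 at 74.2% of the median of the other 7 tumors, and Etv5 was the lowest of the 8. Ets1, an ETS factor on the study's activity list, was at 18.8%, and Shc3, Ccnd2 (cyclin D2) and Spred2 (a brake on ERK signaling) at 38.8%, 44.4% and 41.6%. Muc5ac, a secreted mucin, was at 2.98%, with 93.6 CPM against 1599 to 3846 CPM. Spred1 at 92.9% and Vgf at 67.8% lay within the range of the others, Spred3 was at 75.5% and Myc at 222%. Of the markers given above, the endothelial, macrophage, T/NK, B and myocyte ones were also highest in these nuclei. The fibroblast and pericyte markers were lowest there. The part of these markers was not tested. Under stricter naming only 109 of the 3525 tumor-like nuclei of this tumor keep the name. The study reports a tumor subcluster with endothelial-like features and reduced CIC::DUX4 activity, on a score that includes Etv1, Etv4 and Etv5. That subcluster was not matched to these nuclei.

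**Figure D4:**
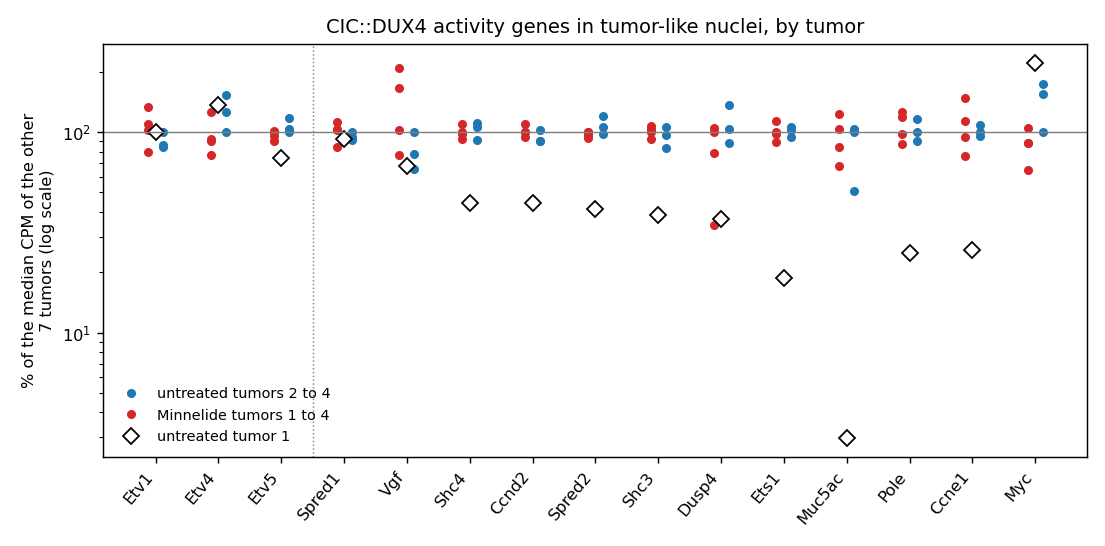
Level of each activity gene in tumor-like nuclei as a percent of its median over the 7 tumors other than untreated tumor 1 (vertical axis, log scale), with 1 point per tumor, untreated tumors 2 to 4 in blue, Minnelide in red and untreated tumor 1 as an open diamond. The diamond of Etv1 (99.6%) and that of Etv4 (136%) lie among the other tumors, that of Etv5 (74.2%) below them, and those of Muc5ac, Ets1, Pole and Ccne1 far below.

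The other 23 ETS family members were mostly highest outside the tumor-like class. Ets1 had means of 1238 CPM in endothelial-like and 1225 CPM in tumor-like nuclei, and Fli1 of 1151 and 1108 CPM. The tumor-like mean of Ets1 includes 254 CPM in untreated tumor 1, against 1212 to 1546 CPM in the other 7 tumors. Erg and Elk3, which act in vessels, were highest in endothelial-like nuclei at 381 and 823 CPM, Etv6 in macrophage-like nuclei at 1068 CPM and Spi1 (PU.1, the myeloid factor) in osteoclast-like nuclei at 319.7 CPM. Highest in tumor-like nuclei were Elf3, at 24.5 CPM, and Fev and Spib, at under 1 CPM, while Etv2 was at 0 in the classes. In tumor-like nuclei 17 were tested and none was called, 6 with a fitted difference above 0 and a median log2 difference of -0.30, where all genes had a median of 0.00 to 2 decimals. Ets1 (0.41, SE 0.505) and Spdef (0.27, SE 0.549) were at the upper end, and Erg (-2.10, SE 0.937) and Spi1 (-1.66, SE 0.411) at the lower. Erg was 342 CPM in untreated tumor 1 and 20.4 to 38.4 CPM in the other untreated tumors. Without untreated tumor 1 it was at -0.39 (SE 0.497), and 3 of the 17 were above 0 (median -0.14).

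On the study's list of other CIC::DUX4 activity genes, 12 genes that include some of the tumor markers, none was called and 10 were fitted above 0 (median log2 difference 0.41). Untreated tumor 1 carried much of this: without it 9 were above 0 with a median of 0.16, Muc5ac was at 0.26 (SE 0.298) and Ets1 at 0.08 (SE 0.147). Vgf was 1093, 1613, 1060 and 1249 CPM in untreated tumors 1 to 4 and 2691, 1239, 3351 and 1656 CPM in Minnelide tumors 1 to 4, with a log2 difference of 0.96 (SE 0.346, edgeR adjusted p = 0.516). Muc5ac followed with 0.66 (SE 0.832). Myc was at -0.74 (SE 0.234) and Dusp4, a phosphatase of ERK, at -0.10 (SE 0.466). Of 24 genes of CIC and the route from receptors to ERK, 23 were tested (Atxn1l was not measured), none was called, and 14 were above 0 (median 0.05). Cic itself was at -0.10 (SE 0.182), its partner Atxn1 at 0.43 (SE 0.368) and the receptor Egfr at 0.30 (SE 0.531). The receptors Met (-3.12, SE 1.09) and Kit (-1.84, SE 0.653) were lowest, and both were highest in untreated tumor 1, at 156 and 424 CPM. Without that tumor they were at -0.91 (SE 0.451) and -0.86 (SE 0.391), with 14 of the 23 above 0.

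Among 7 genes of PEA3 protein turnover none was called and 6 were above 0 (median 0.20), led by the ligase parts Cul4a (0.29, SE 0.185) and Ddb1 (0.26, SE 0.141), with the pseudokinase Trib1 at -0.32 (SE 0.311). Of 8 genes known as PEA3 targets, 7 were tested, none was called and 1, Myb (0.51, SE 0.789), was above 0 (median -0.48). Met was again lowest, followed by the gelatinase Mmp9 (-1.37, SE 0.667). Of 6 neuromuscular junction genes, 4 were tested, none was called and 2 were above 0 (median 0.25): Ache (0.85, SE 0.637) and Colq (0.50, SE 0.31), which make and anchor acetylcholinesterase, against the receptor subunit Chrna1 (-0.48, SE 0.831) and the kinase Musk (-0.01, SE 0.994). In myocyte-like nuclei, where these genes belong, 5 were tested, none was called and 4 were above 0 (median 0.49). Without untreated tumor 1, the tumor-like counts were 5 of 7 for turnover (median 0.16), 1 of 7 for targets (-0.54) and 4 of 4 for the junction genes (0.39), again with none called. All 19 cell cycle genes tested were above 0 without a call (median 0.45, Ccnb1 not measured), led by Aurkb (0.74, SE 0.383) and Plk1 (0.64, SE 0.335). Untreated tumor 1 was low for these genes, with Mki67 at 43.7 CPM against 139 to 177 CPM in the other untreated tumors, and without that tumor 16 of 19 were above 0 (median 0.20).

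Across 52 profiles of 1 class in 1 tumor, the genes whose level followed each member most closely were found by Pearson correlation over 7686 genes, as a description. The profiles share libraries, and every class held UMIs of the 3 genes. For Etv1 they were Hmga2 (0.941), Pde4b (0.938), Shc4 (0.937), Ccnd2 (0.928) and Alk (0.928). For Etv4 they were Spsb4 (0.888), Cdc14b (0.883), Igf1r (0.869), Unc13a (0.868) and Pde4b (0.865). For Etv5 they were Hmga2 (0.978), Shc3 (0.971), Shc4 (0.97), Alk (0.955) and Lrp8 (0.954). The members correlated at 0.961 (Etv1 with Etv5), 0.918 (Etv1 with Etv4) and 0.911 (Etv4 with Etv5). Etv4 was the least like the others in this measure.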

How the data were processed

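Raw UMI counts per nucleus were deposited by the authors as 8 matrices, 4 per group; the matrix headers name Cell Ranger 9.0.1 and the submitters' processing notes Cell Ranger 7.0.1, bcl2fastq 2.20 and mm39. Intronic reads were included. Libraries were made with a 3' kit and on-chip multiplexing. The strand setting of the counting is not given in the sources used here. The series design gives 4 tumors per group, so each matrix counted as 1 tumor. No replicate number pairs animals of the groups. Litters are not given. Barcode bases 8 and 9 were constant within a tumor and the same 4 pairs recurred in both groups, so a run per group cannot be told apart from treatment, and p-values measure the spread between these tumors.

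Nuclei with under 200 genes or rejected by a mixture model of mitochondrial share and gene number (posterior above 0.75) were left out, and the nuclei of a tumor with most simulated doublets among their neighbors were removed as doublets, 0.8% for each 1000 nuclei. With scanpy 1.11.5, 2000 variable genes, 30 principal components, 40 neighbors and Leiden clustering at resolution 1.0 (leidenalg 0.10.2) gave the clusters. The PEA3 genes were left out of both steps. The scoring rule that names clusters was set after the clusters and marker scores had been seen and before the PEA3 values were. UMI sums per tumor and class (at least 20 nuclei) were tested with edgeR 4.0.16 (filterByExpr, TMM, quasi-likelihood) over all genes with Benjamini-Hochberg adjustment, or DESeq2 1.42.0 as an alternative. Shares, ratios and class contrasts used exact two-sided permutation tests (scipy 1.17.1). CPM were computed from the UMIs of the same nuclei, and 1 CPM was added before logs. The edgeR intervals include the spread between tumors. In simulated tumor-like sums over 13017 genes, edgeR found 0 of 50 genes changed 2-fold, 17 of 50 at 3-fold and 31 of 50 at 4-fold.

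Genes were named as follows: the 3 members always, the 5 genes closest in profile to each, and from each list the members with the 2 largest fitted differences in either direction. Myocyte- and tumor-like cluster numbers, Shc3, Shc4, the tumor markers set beside them and the genes set beside untreated tumor 1 were chosen after their values were seen. Members and lists were chosen with earlier results of these data known. Alternatives covered normalization, filters, clustering, naming, depth and each tumor left out. The ratio of gene pairs and thinning to 200 UMIs, and the lists without untreated tumor 1, were added after the data were seen. Authors' positions are mm39, and gene spans come from GENCODE on GRCm39.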

Additional observations from a re-analysis of the deposited data

Results flagged for a closer look

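Of 57 groups of 4 tumors examined for a tumor far from the others, 2 were set apart, and chance sets apart about 1 in 20. Etv5 over all retained nuclei was 915.6 CPM in untreated tumor 1, below 1260 to 1321 CPM in the other untreated tumors. Etv4 in myocyte-like nuclei was 1426 CPM in untreated tumor 2, the highest of the untreated group.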

How the results depend on the processing

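No level or detection share of a PEA3 gene passed the threshold between the groups under any alternative run. The Etv4 to Etv1 ratio was followed there by its exact permutation p without adjustment over the ratios. This ran from 0.0286 to 0.533 over 16 alternatives, so some lay under 0.05, and the adjusted main value of 0.0857 did not. For the named genes and groups 419 values kept direction and side, 14 reversed, 3 grew stronger, 2 weaker and 2 moved. For the main results 93 values stayed the same, 4 moved and 3 were weaker. Among the reversed values, Etv5 in tumor-like nuclei went to a log2 difference of -0.0283 without TMM, -0.0725 under stricter naming and -0.06211 without untreated tumor 1 (highest 0.2312, without untreated tumor 3), and Etv4 over all nuclei to 0.05396 without untreated tumor 4 and 0.07787 without Minnelide tumor 2 (lowest -0.3017, without Minnelide tumor 1). The share of nuclei with Etv5 went to -0.18 points at 2000 UMIs, -0.68 under stricter naming, and -3.48, -0.26 and -0.31 without untreated tumor 1, Minnelide tumor 1 and Minnelide tumor 3 (highest 2.031, without untreated tumor 3). The Etv1 and Etv5 odds ratio went to -0.10, -0.02, -0.01 and -0.06 without untreated tumors 1, 2 and 4 and Minnelide tumor 2 (highest 0.2875, without Minnelide tumor 1). DESeq2 called 110 genes in tumor-like nuclei and 156 over all nuclei where edgeR called 0, none of them PEA3 genes.

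Of the 3 gene pairs, 1 passed for co-detection at 1000 UMIs, 0 at 500 UMIs, 0 at 200 UMIs and 3 at 2000 UMIs, where 0 to 11 nuclei per tumor lacked Etv1 and the constant added to empty cells sets the value. Leaving out a tumor gave 1 to 2, with 2 without Minnelide tumor 3. The Etv4 to Etv1 log2 difference ran from -0.68 to -0.47 with a tumor left out, was -0.49 under stricter naming (exact permutation p = 0.0571), -0.15 in nuclei under 1000 UMIs (exact permutation p = 0.533) and -0.56 without Minnelide tumor 3 (exact permutation p = 0.0571). Without Minnelide tumor 3, each remaining Minnelide tumor still lay below each untreated one. Why the other values moved was not tested. The tumor-like excess over other classes kept its direction in every alternative run. No analysis paired by animal was possible because tumor numbers follow the order of the matrices and tie no untreated animal to a Minnelide one. Untreated tumor 4 is the shallowest, which limits detection in it most.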
